A study of Mus musculus with 8 samples.

Results

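The mitosis and kinetochore genes described here are 52 genes of cell division, from the mitotic cyclins to the proteins of the centromere, the condensin ring and the cleavage furrow. They were chosen by symbol, with earlier results of these data known. All 52 were found among the 38172 gene models of the deposited table, Foxm1 in a model that it shares with 4933413G19Rik. RNA came from haematopoietic stem cells (HSCs), which reside in bone marrow and give rise to every blood lineage. The old group held HSCs of wild-type C57BL/6 mice aged 24 months, with biological replicates 13 and 14. The young group held HSCs of wild-type C57BL/6 mice aged 4 months, also with replicates 13 and 14. Polyadenylated RNA was sequenced, and the cells were freshly sorted bone marrow cells of the dye-excluding side population that carried Kit and Sca-1, lacked lineage markers and carried CD150. Each replicate was sequenced as 2 technical libraries, which were averaged, so n = 2 per age. Whether a replicate was 1 mouse or a pool is not given in the labels, and p-values measure only the spread between these samples.

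A cell enters mitosis when cyclin A and cyclin B activate the kinase Cdk1, which Cdc25 phosphatases switch on. Chromosomes are then compacted by condensin and topoisomerase II, and kinetochores built on centromeric chromatin attach them to spindle microtubules. The spindle checkpoint holds back the anaphase-promoting complex (APC/C) until all kinetochores are attached, after which securin and the B cyclins are destroyed and the cell divides. Most messenger RNAs of this programme are made in G2 phase and mitosis, and adult HSCs are known to be mostly quiescent.

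Many of these genes are known to share a promoter layout, in which CCAAT boxes bound by the factor NF-Y lie upstream of a cell cycle genes homology region (CHR) that the DREAM complex and the B-Myb and Foxm1 complexes use. Promoters of 300 bases, from 250 bases before to 50 bases after the annotated start, were taken from RefSeq on GRCm38.p6 and matched by symbol for 44 of the 52 genes (49 promoters). They are shown for Ect2, the member that passed the test of age, and for 6 core members, so that the letters can be seen in place. Capitals mark TTTGAA or TTCGAA (the CHR letters) and CCAAT, each on either strand, so that TTCAAA and ATTGG are matches read from the other strand.
Ect2 (GRCm38.p6 chr3:27153805-27154104, minus strand): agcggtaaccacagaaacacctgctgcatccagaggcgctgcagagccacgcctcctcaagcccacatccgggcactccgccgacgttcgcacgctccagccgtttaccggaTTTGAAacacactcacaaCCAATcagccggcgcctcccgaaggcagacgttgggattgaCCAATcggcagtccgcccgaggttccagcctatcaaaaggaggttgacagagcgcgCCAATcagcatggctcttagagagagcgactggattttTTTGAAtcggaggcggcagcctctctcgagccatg
Ccnb1 (GRCm38.p6 chr13:100786437-100786736, minus strand): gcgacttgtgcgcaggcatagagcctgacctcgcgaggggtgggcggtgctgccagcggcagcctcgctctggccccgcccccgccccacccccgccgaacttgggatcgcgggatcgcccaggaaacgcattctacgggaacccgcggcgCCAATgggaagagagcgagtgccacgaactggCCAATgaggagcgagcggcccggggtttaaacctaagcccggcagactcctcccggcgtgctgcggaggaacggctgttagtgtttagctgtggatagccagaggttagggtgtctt
Ccnb2 (GRCm38.p6 chr9:70421505-70421804, minus strand): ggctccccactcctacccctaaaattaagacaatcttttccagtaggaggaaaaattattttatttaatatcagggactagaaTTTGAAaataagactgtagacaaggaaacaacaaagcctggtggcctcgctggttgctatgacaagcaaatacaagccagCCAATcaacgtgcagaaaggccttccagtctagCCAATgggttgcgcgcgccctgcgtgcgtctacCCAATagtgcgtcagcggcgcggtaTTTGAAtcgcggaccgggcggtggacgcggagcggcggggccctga
Cdk1 (GRCm38.p6 chr10:69352863-69353162, minus strand): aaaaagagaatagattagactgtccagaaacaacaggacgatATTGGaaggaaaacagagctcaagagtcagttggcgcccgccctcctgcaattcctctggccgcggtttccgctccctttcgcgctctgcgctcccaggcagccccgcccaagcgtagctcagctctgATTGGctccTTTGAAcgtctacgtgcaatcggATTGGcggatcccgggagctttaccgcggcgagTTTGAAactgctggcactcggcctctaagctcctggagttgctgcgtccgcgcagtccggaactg
Plk1 (GRCm38.p6 chr7:122159185-122159484, plus strand): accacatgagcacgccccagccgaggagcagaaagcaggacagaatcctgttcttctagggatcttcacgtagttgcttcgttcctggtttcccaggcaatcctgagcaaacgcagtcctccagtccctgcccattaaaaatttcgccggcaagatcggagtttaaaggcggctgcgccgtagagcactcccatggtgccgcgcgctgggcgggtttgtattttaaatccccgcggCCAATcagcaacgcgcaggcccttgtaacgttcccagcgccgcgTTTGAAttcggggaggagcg
Ube2c (GRCm38.p6 chr2:164769679-164769978, plus strand): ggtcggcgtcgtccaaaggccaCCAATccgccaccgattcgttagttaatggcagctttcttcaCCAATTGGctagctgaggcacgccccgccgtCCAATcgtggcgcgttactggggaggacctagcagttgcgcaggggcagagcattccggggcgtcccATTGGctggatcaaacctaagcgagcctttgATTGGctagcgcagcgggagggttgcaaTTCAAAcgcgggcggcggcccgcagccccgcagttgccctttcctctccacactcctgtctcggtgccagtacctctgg
Top2a (GRCm38.p6 chr11:99024140-99024439, minus strand): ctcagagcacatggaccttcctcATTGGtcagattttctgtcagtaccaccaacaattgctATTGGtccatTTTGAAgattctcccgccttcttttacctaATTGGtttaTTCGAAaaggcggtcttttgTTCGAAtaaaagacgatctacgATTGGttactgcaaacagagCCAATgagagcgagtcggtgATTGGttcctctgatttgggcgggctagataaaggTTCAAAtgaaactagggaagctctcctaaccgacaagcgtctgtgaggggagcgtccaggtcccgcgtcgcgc

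TTTGAA or TTCGAA was found in the promoters of 29 of the 44 matched members, and in 65.3% of their 49 promoters. Of all 32851 mouse promoters of the same length, 19.2% held either word. CCAAT occurred in 77.6% of the members' promoters, against 37.4% of all promoters, and in 61.2% against 7.52% it occurred together with a CHR word. A CHR word started within 50 bases of the annotated start in 27 of the 44 members (59.2% of their promoters), against 5.31% of all promoters. Ect2 has 2 annotated starts, and from the one shown TTTGAA ran from base 16 to base 21, with a second copy 138 bases before the start and CCAAT beginning 23, 79 and 120 bases before it. In Cdk1, Ube2c and Top2a the CHR word nearest the start began 15, 29 and 23 bases before it, and in Ccnb2 and Plk1 it began at base 5 and base 31 after it. Ccnb1 held 2 CCAAT words, 99 and 67 bases before the start, and no CHR word in this window. These matches describe the letters and were not tested against the change with age.

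**Figure D1:**
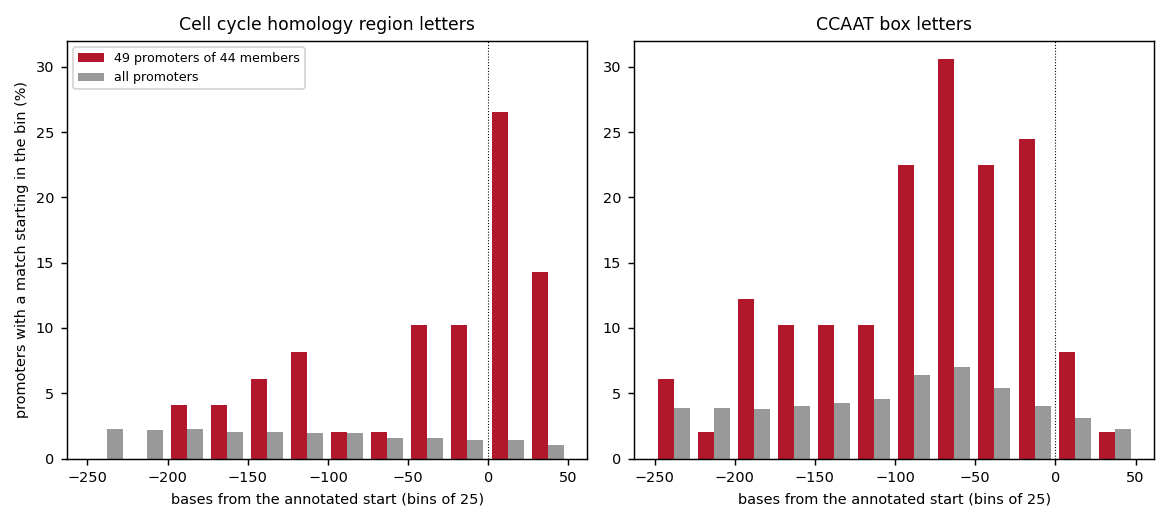
Share of promoters with a CHR word (left) or CCAAT (right) that starts in each bin of 25 bases, by distance from the annotated start, for 49 promoters of 44 members (red) and all 32851 promoters (grey). The CHR words of the members gather at the start, with 26.5% of member promoters in the first 25 bases after it, and CCAAT lies upstream, with 30.6% between 75 and 51 bases before it.

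Nearly all of the genes stood at a lower level in old than in young HSCs, each by a modest amount. Of the 52, 48 had both old replicates below both young replicates, an arrangement seen in 17.4% of the 18318 genes tested. Fitted changes, given as log2 fold changes of old over young, were below 0 for 50 of 52 members and for 43.5% of all tested genes, and the median was -0.51 among members and 0.04 among all tested genes. Only Ect2 passed a limma test over all genes at an adjusted p under 0.05, against 0.54% of tested genes called lower. No member was called higher, against 2.01% of tested genes. With the replicate number as a block, a pairing that the labels do not establish, limma called 41 members and 5.83% of tested genes lower. At an unadjusted p under 0.05, 41 members were lower and 0 higher in limma, against 5.08% and 8.97% of tested genes. This count was 42 without old 13, 31 without old 14, 2 without young 13 and 6 without young 14, each fit having 1 replicate in an age group. All 52 members passed the filter on low values, and the smallest scaled value of any member in any replicate was 350.5. In bulk RNA, fewer dividing cells and less of these messages per cell cannot be told apart.

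In FPKM, the authors' values per length of gene model, the members summed to 966 in old 13 and 838 in old 14, against 1254 in young 13 and 1252 in young 14. They made up 0.429% and 0.304% of the scaled reads of the old replicates, and 0.560% and 0.530% of those of the young ones. The old replicates thus differed more from each other than the young ones did, and both lay below them. The ratio of the old to the young mean had a median of 0.708 over members, and 0 members stood at or below 0.5. The median member had 12.5 FPKM in old HSCs and 17.1 FPKM in young HSCs. The technical libraries of a replicate differed by a median of 0.018 to 0.045 on the log2 scale over members, the old replicates by 0.18 and the young replicates by 0.093.

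**Figure D2:**
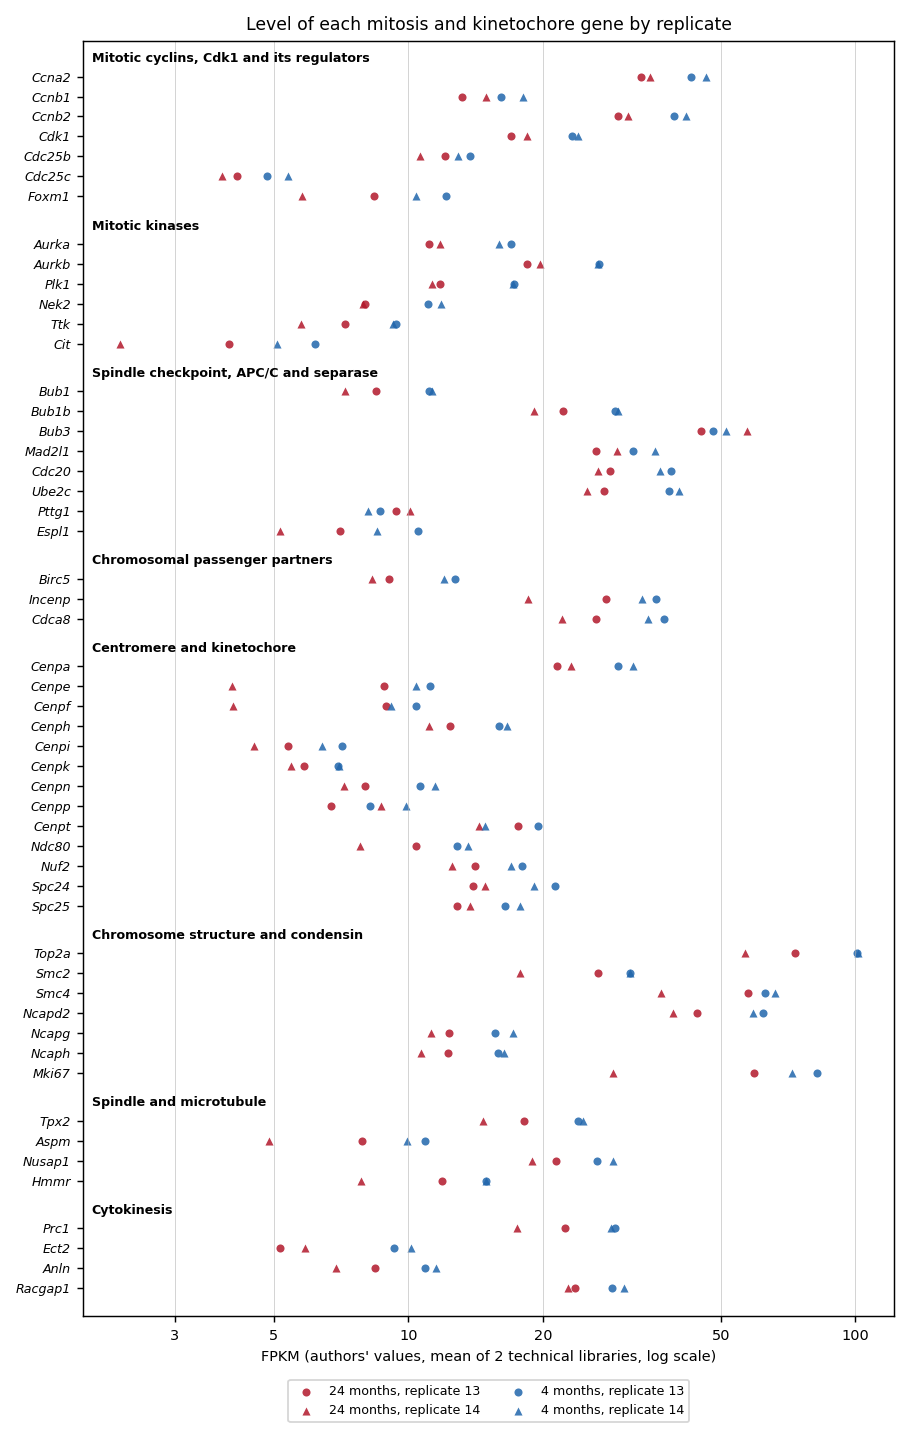
FPKM of each member on a log scale in old (red) and young (blue) HSCs, with replicate 13 as circles and replicate 14 as triangles, grouped by role. In 48 of 52 genes both red symbols lie left of both blue ones; Bub3, Cenpp and Cenpt overlap, and Pttg1 runs the other way.

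The 4 members of cytokinesis, the last step of division, included the single call. Ect2, the exchange factor that activates RhoA at the cell equator, stood at 5.16 and 5.86 FPKM in old 13 and old 14, against 9.30 and 10.1 FPKM in young 13 and young 14. The ages did not overlap, and Ect2 fell by 0.82 on the log2 scale (SE 0.15, limma adjusted p = 0.0423), to 0.567 of the young mean. The call was narrow. It was lost with no filter on low values and with no trend in the prior (limma adjusted p = 0.159 and 0.119). It was also lost without any 1 of the 4 replicates, but such fits leave 1 replicate in an age group and resolve little. Their log2 fold changes stayed between -0.91 and -0.73. Its model in the files (build mm9) spans bases 26996144 to 27052800 of chromosome 3, minus strand. Its partner Racgap1, which recruits Ect2 to the midzone, had 23.6 and 22.8 FPKM in old HSCs, against 28.5 and 30.3 FPKM in young HSCs (log2 fold change -0.35, SE 0.14). Prc1, which bundles midzone microtubules, had 22.4 and 17.5 FPKM in old HSCs, against 29.0 and 28.3 FPKM in young HSCs. Anln, the furrow scaffold anillin, had 8.41 and 6.88 FPKM in old HSCs, against 10.9 and 11.6 FPKM in young HSCs. None of these 3 overlapped between ages, and none passed (limma adjusted p = 0.147 to 0.31).

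Among the cyclins, Cdk1 and its regulators, all 7 lay lower in both old replicates and 0 of 7 passed in limma or limma-voom, with 4 at an unadjusted p under 0.05. Cdk1, the mitotic kinase itself, had 16.9 and 18.4 FPKM in old HSCs, against 23.3 and 24.0 FPKM in young HSCs. Ccnb2, a B-type cyclin, had 29.4 and 31.0 FPKM in old HSCs, against 39.3 and 41.9 FPKM in young HSCs. These genes had close replicates and ratios near that of the whole set, 0.749 for Cdk1 and 0.744 for Ccnb2. Ccna2, cyclin A2 of S phase and G2, had 33.1 and 34.7 FPKM in old HSCs, against 42.9 and 46.4 FPKM in young HSCs. Foxm1, the transcription factor that drives many G2 and mitosis genes, had 8.35 and 5.78 FPKM in old HSCs, against 12.1 and 10.4 FPKM in young HSCs, with a fitted change of -0.69 (SE 0.20, limma adjusted p = 0.17), and of -0.43 without old 14. Smaller differences were seen for Ccnb1, Cdc25b and Cdc25c, with log2 fold changes of -0.28, -0.23 and -0.36. For Ccnb1 and Ccnb2 the mouse annotation names a pseudogene, and how reads were shared with it is not given.

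The 6 mitotic kinases all lay lower in both old replicates, and all 6 had an unadjusted p under 0.05, while 0 passed after adjustment in limma or limma-voom. Plk1, the polo kinase of mitotic entry and spindle assembly, came closest, with 11.8 and 11.3 FPKM in old HSCs, against 17.3 and 17.1 FPKM in young HSCs. The ages lay further apart than the replicates of either, with a log2 fold change of -0.58 (SE 0.14, limma adjusted p = 0.099). Aurka, the kinase of the spindle poles, had 11.1 and 11.8 FPKM in old HSCs, against 17.0 and 15.9 FPKM in young HSCs. Aurkb, the kinase of the chromosomal passenger complex, had 18.4 and 19.7 FPKM in old HSCs, against 26.7 and 26.6 FPKM in young HSCs. Nek2, which acts on centrosome separation, had 7.98 and 7.90 FPKM in old HSCs, against 11.1 and 11.8 FPKM in young HSCs. In these 4 genes old 14 stood at 0.96 to 1.07 of old 13, against 0.57 in Cit. Cit, the citron kinase of the midbody, had 3.96 and 2.27 FPKM in old HSCs, against 6.19 and 5.07 FPKM in young HSCs, with a fitted change of -0.90 and a wider SE of 0.27. Without old 14 the fitted change of Cit was -0.50. Ttk, the checkpoint kinase Mps1, had a log2 fold change of -0.53 (SE 0.17).

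Birc5, Incenp and Cdca8 encode survivin, INCENP and borealin, which hold Aurkb in the passenger complex. Birc5 had 9.07 and 8.27 FPKM in old HSCs, against 12.7 and 12.0 FPKM in young HSCs. Cdca8 had 26.2 and 22.1 FPKM in old HSCs, against 37.3 and 34.3 FPKM in young HSCs. Incenp had 27.6 and 18.5 FPKM in old HSCs, against 35.9 and 33.2 FPKM in young HSCs. All 3 were lower in both old replicates, with log2 fold changes between -0.61 and -0.51 and limma adjusted p values of 0.132 to 0.23.

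The checkpoint and APC/C group held the members that went the other way. Of its 8 genes, 6 lay lower in both old replicates and 0 passed in limma or limma-voom, with 5 at an unadjusted p under 0.05. Ube2c, the ubiquitin-conjugating enzyme that works with the APC/C, had 27.3 and 25.03 FPKM in old HSCs, against 38.3 and 40.3 FPKM in young HSCs (log2 fold change -0.59, SE 0.14, limma adjusted p = 0.105). Cdc20, the APC/C activator, had 28.3 and 26.6 FPKM in old HSCs, against 38.6 and 36.5 FPKM in young HSCs. Bub1b, which encodes the checkpoint inhibitor BubR1, had 22.2 and 19.1 FPKM in old HSCs, against 29.0 and 29.4 FPKM in young HSCs. Its relative Bub1 ran in parallel, with 8.46 and 7.20 FPKM in old HSCs, against 11.1 and 11.3 FPKM in young HSCs. Mad2l1, the checkpoint protein Mad2, lay lower by less, at -0.28 (SE 0.15).

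Pttg1, which encodes securin, the inhibitor of separase, was the only member above both young replicates in both old ones. It had 9.37 and 10.1 FPKM in old HSCs, against 8.65 and 8.11 FPKM in young HSCs, and its log2 fold change of 0.22 (SE 0.16) did not pass (limma adjusted p = 0.641). Espl1, the separase that securin restrains, had 7.02 and 5.16 FPKM in old HSCs, against 10.5 and 8.51 FPKM in young HSCs, with a log2 fold change of -0.65 (SE 0.20). Bub3, which brings Bub1 and BubR1 to kinetochores, overlapped between the ages, with 45.2 and 57.1 FPKM in old HSCs, against 48.1 and 51.5 FPKM in young HSCs. Its fitted change was 0.03 (SE 0.16) and was below 0 under 5 of the alternatives, and that of Pttg1 was above 0 under all 15.

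At the centromere and kinetochore, 11 of 13 members lay lower in both old replicates and 0 passed in limma or limma-voom, with 9 at an unadjusted p under 0.05. Cenpa, the histone H3 variant that marks centromeres, had 21.6 and 23.1 FPKM in old HSCs, against 29.4 and 31.9 FPKM in young HSCs. Cenpn, which binds CENP-A nucleosomes, had 8.01 and 7.16 FPKM in old HSCs, against 10.6 and 11.5 FPKM in young HSCs (log2 fold change -0.54, SE 0.16, limma adjusted p = 0.171). Neither gene overlapped between the ages. Cenph, an inner kinetochore protein, had 12.4 and 11.1 FPKM in old HSCs, against 15.9 and 16.6 FPKM in young HSCs.

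The 4 subunits of the Ndc80 complex, the microtubule-binding rod of the outer kinetochore, were all lower in both old replicates. Spc24 had 14.0 and 14.8 FPKM in old HSCs, against 21.3 and 19.1 FPKM in young HSCs. The log2 fold changes were -0.55 for Ndc80, -0.39 for Nuf2, -0.49 for Spc24 and -0.37 for Spc25, with SEs of 0.14 to 0.18. Inner kinetochore members differed more among themselves, with -0.46 for Cenpi, -0.30 for Cenpk, -0.24 for Cenpp and -0.10 for Cenpt. Cenpt, which links the centromere to the Ndc80 complex, had 17.6 and 14.4 FPKM in old HSCs, against 19.5 and 14.8 FPKM in young HSCs, so that the ages overlapped. Cenpp overlapped as well, with 6.70 and 8.68 FPKM in old HSCs, against 8.21 and 9.86 FPKM in young HSCs. It has the lowest scaled value of the set, and 4 other genes lie within its span on the other strand.

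The chromosome structure genes included the member with the highest FPKM. Top2a, topoisomerase II alpha, which untangles sister DNA, had 73.3 and 56.7 FPKM in old HSCs, against 100.7 and 101.1 FPKM in young HSCs (log2 fold change -0.65, SE 0.19, limma adjusted p = 0.165). Of condensin I, the ring that compacts mitotic chromosomes, Ncapd2 had 44.2 and 39.1 FPKM in old HSCs, against 62.0 and 58.9 FPKM in young HSCs. Its log2 fold change of -0.54 (SE 0.15) was close to those of the other non-SMC subunits, -0.48 for Ncapg and -0.50 for Ncaph. Ncapg had 12.3 and 11.2 FPKM in old HSCs, against 15.6 and 17.2 FPKM in young HSCs. Ncaph had 12.2 and 10.6 FPKM in old HSCs, against 15.9 and 16.3 FPKM in young HSCs. The SMC subunits Smc2 and Smc4, which condensin II also uses, had more spread between the old replicates, 57.6 and 36.7 FPKM for Smc4 in old HSCs, against 62.9 and 66.1 FPKM in young HSCs. All 7 genes of the group lay lower in both old replicates and 0 passed in limma or limma-voom, with 6 at an unadjusted p under 0.05.

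Among the 4 spindle genes, Tpx2, which activates Aurora A on the spindle, had 18.2 and 14.7 FPKM in old HSCs, against 24.0 and 24.5 FPKM in young HSCs. Nusap1, a microtubule bundler, had 21.4 and 18.9 FPKM in old HSCs, against 26.4 and 28.8 FPKM in young HSCs. The ages did not overlap for either gene. Hmmr, the spindle protein RHAMM, had 11.9 and 7.83 FPKM in old HSCs, against 14.9 and 14.9 FPKM in young HSCs. Aspm, a spindle pole protein, had 7.88 and 4.88 FPKM in old HSCs, against 10.9 and 9.93 FPKM in young HSCs. All 4 had an unadjusted p under 0.05, and limma adjusted p values were 0.145 to 0.226.

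**Figure D3:**
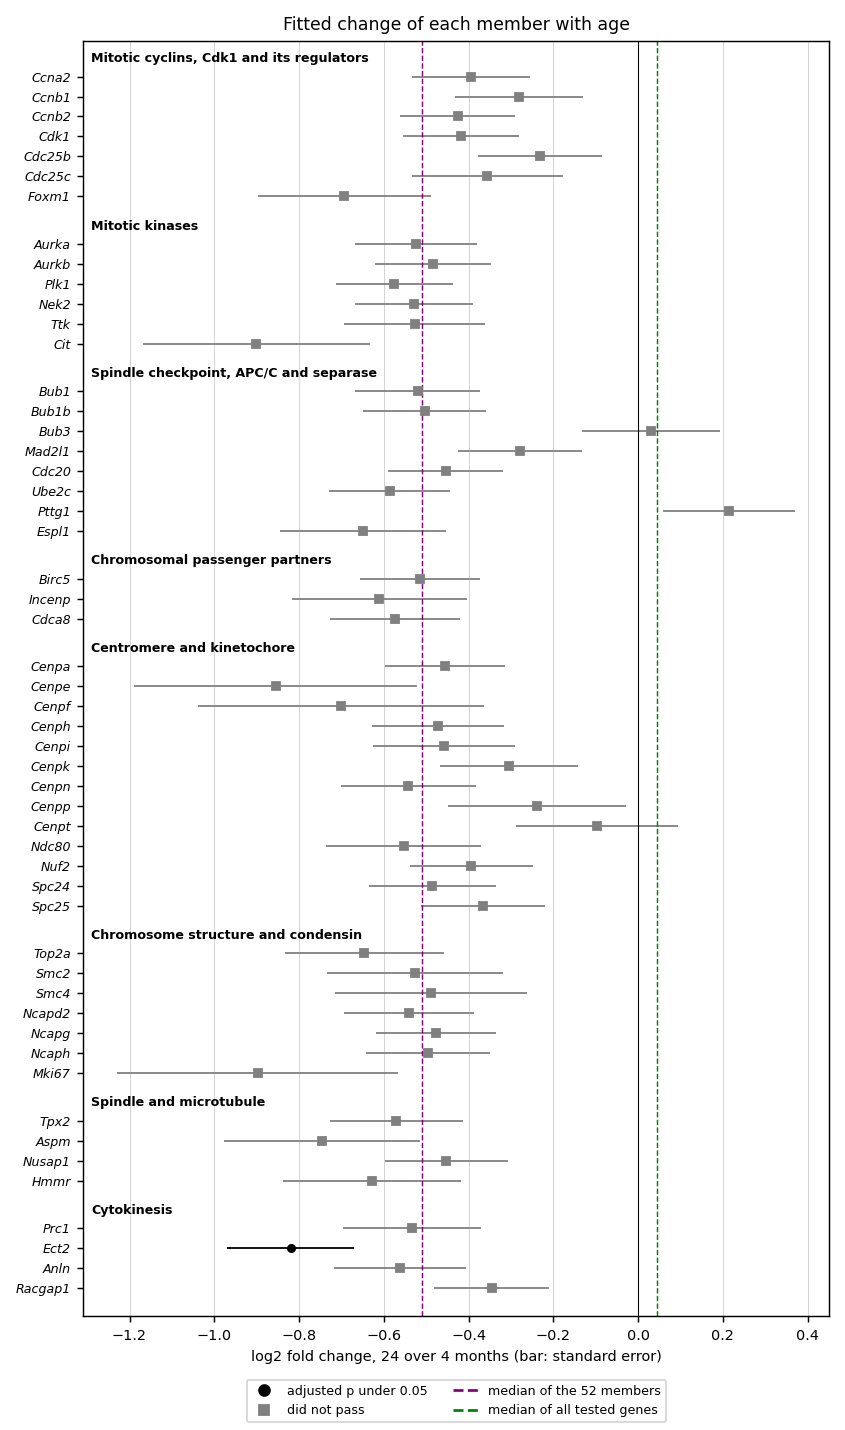
Fitted log2 fold change of old over young for each member with its standard error, grouped by role; the black circle passed the test and grey squares did not. The points gather around the members' median of -0.51 (purple), left of the median of all tested genes at 0.04 (green), with Bub3 and Pttg1 right of 0.

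The size of the difference went with the length of the gene model, and among the old replicates this was seen in old 14. Mki67, the proliferation antigen Ki-67 that coats mitotic chromosomes, has a model of 10061 bases and had 59.2 and 28.7 FPKM in old 13 and old 14, against 82.1 and 72.0 FPKM in young 13 and young 14. Cenpe, a kinetochore motor with a model of 7767 bases, had 8.84 and 4.03 FPKM in old HSCs, against 11.2 and 10.4 FPKM in young HSCs. Cenpf, a kinetochore protein with a model of 11104 bases, had 8.89 and 4.04 FPKM in old HSCs, against 10.4 and 9.13 FPKM in young HSCs. In each of these, old 14 stood below 0.5 of old 13, while young 14 stood at 0.88 to 0.93 of young 13.

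Over the 6 members with models of at least 6000 bases (Cit, Espl1, Cenpe, Cenpf, Mki67 and Aspm), old 14 over old 13 had a median log2 ratio of -0.92. Over the 17 members under 2000 bases it was 0.07. The same ratio over all tested genes was -0.23 among 1841 genes of at least 6000 bases and 0.08 among 6986 genes under 2000 bases. Young 14 over young 13 gave -0.19 for the long members and 0.06 for the short ones. Spearman's rho between model length and the log2 ratio of old 14 to old 13 was -0.70 over the 52 members and -0.16 over all tested genes, where genes share the same libraries and are not independent. For young 14 over young 13 it was -0.37 over members and 0.06 over all tested genes. Over members the old ratio had a rho of 0.04 with the GC content of the longest annotated transcript. Only 73.6% of all tested genes had a transcript of the same name. Over those genes the rho with GC content was -0.12, which does not cover the rest.

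Old 13 alone showed a difference from young HSCs that was similar at every length. Its median log2 ratio to the young mean was -0.42, -0.36, -0.42 and -0.39 over members of under 2000, 2000 to 4000, 4000 to 6000 and at least 6000 bases. For old 14 the same medians were -0.41, -0.56, -0.73 and -1.29. Without old 14 the median log2 fold change of members was -0.40, 50 of 52 lay below 0, and the 6 long members ranged from -0.50 to -0.13. With values adjusted for model length, an alternative chosen after the data were seen, the median was -0.54, 51 of 52 lay below 0 and Ect2 remained called. That adjustment was fitted over all tested genes, where the dependence on length was weaker than over members. It therefore cannot show how much the members' own length dependence contributes. The cause of the length dependence in old 14 was not tested.

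**Figure D4:**
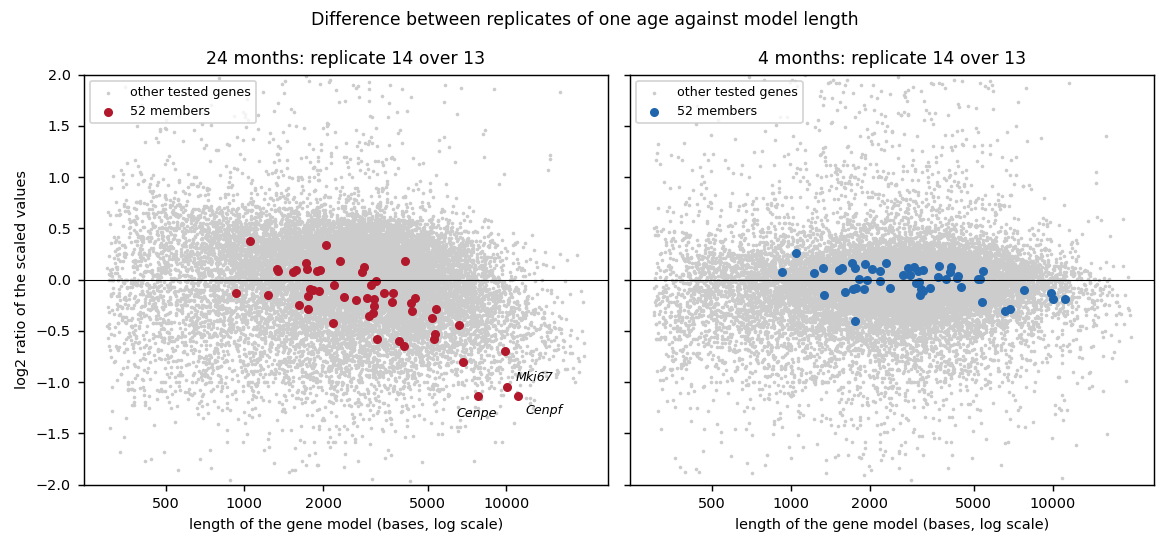
Log2 ratio of replicate 14 to replicate 13 against gene model length (log scale) for old (left) and young (right) HSCs, with members in colour and other tested genes in grey; genes outside the axes are not drawn. In old HSCs the long members run downward to Cenpe, Cenpf and Mki67, with a median of -0.92 at 6000 bases or more, and in young HSCs the same members have a median of -0.19.

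Further genes of division were taken from lists outside the 52, also chosen with earlier results of these data known. Of all tested genes, 43.5% lay below 0 and 17.4% had both old replicates below both young. At an unadjusted p under 0.05, 5.08% of tested genes were lower and 8.97% higher in limma. Of 43 other mitosis genes found in the table, 43 lay below 0, their median being -0.51, 42 had both old replicates below both young, and 0 passed in limma or limma-voom, with 33 at an unadjusted p under 0.05. Depdc1b had 6.20 and 6.84 FPKM in old HSCs, against 9.58 and 10.7 FPKM in young HSCs. Kif2c, a microtubule-depolymerising kinesin of the centromere, had 7.49 and 6.34 FPKM in old HSCs, against 10.97 and 10.8 FPKM in young HSCs. Of 27 other kinetochore genes, 24 lay below 0 with a median of -0.34 and 0 passed in limma or limma-voom, with 13 at an unadjusted p under 0.05. Kntc1, which recruits dynein to kinetochores, and Nsl1, a Mis12 complex subunit, had the smallest p in this list. Kntc1 had 6.84 and 5.53 FPKM in old HSCs, against 9.90 and 8.86 FPKM in young HSCs. Nsl1 had 6.80 and 6.92 FPKM in old HSCs, against 10.4 and 9.02 FPKM in young HSCs. The ages did not overlap in either gene, and their log2 fold changes were -0.61 and -0.50.

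Genes of the APC/C, listed with its partners Fzr1, Fbxo5 and Ube2s, were spread around 0. Of the list, 8 of 15 lay below 0, all of the partners among them, with a median of -0.02. In limma or limma-voom 0 passed, with 2 of the partners at an unadjusted p under 0.05. The 2 were Ube2s, a conjugating enzyme of the APC/C, with 10.5 and 11.4 FPKM in old HSCs, against 17.3 and 15.4 FPKM in young HSCs, and Fbxo5, its inhibitor Emi1, with 16.7 and 14.3 FPKM in old HSCs, against 22.9 and 19.1 FPKM in young HSCs. Of 22 E2F, DREAM and NF-Y genes 17 lay below 0 with a median of -0.12, and 0 passed in limma or limma-voom, with 4 lower and 1 higher at an unadjusted p under 0.05. E2f8, a repressor of the E2F programme, had 11.3 and 7.74 FPKM in old HSCs, against 16.9 and 17.5 FPKM in young HSCs, and E2f1, an activator, had 11.6 and 12.1 FPKM in old HSCs, against 18.6 and 17.3 FPKM in young HSCs. DNA replication genes, which act earlier in the cycle, lay below 0 in 53 of 55 with a median of -0.36 and 0 passing in limma or limma-voom (26 at an unadjusted p under 0.05). Ccne1, cyclin E1, had 3.94 and 3.64 FPKM in old HSCs, against 6.80 and 6.35 FPKM in young HSCs. Uhrf1, a partner of maintenance DNA methylation, had 32.2 and 28.9 FPKM in old HSCs, against 50.3 and 47.1 FPKM in young HSCs. Differences between these lists and the 52 genes were not tested.

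**Figure D5:**
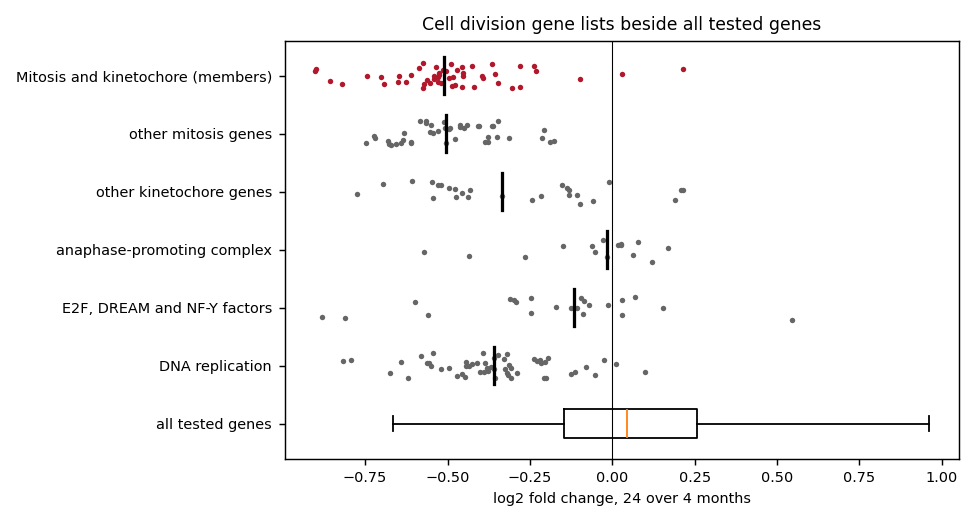
Log2 fold change of old over young for the 52 members (red) and the genes of 5 other lists (grey), with black bars at the medians, above a box of all tested genes (quartiles, with whiskers from the 5th to the 95th percentile). Medians are -0.51 for members and for other mitosis genes and -0.36 for DNA replication genes. They are -0.02 for the APC/C with its partners and 0.04 for all tested genes.

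In the comparison that the authors deposited, more members were called. The authors' deposited table marked 44 of the 52 as lower in old HSCs and 0 as higher, against 5.82% and 6.0% of its 22284 genes with an adjusted p. In the authors' deposited table the 8 without a mark were Ccnb1, Cdc25b, Bub3, Mad2l1, Pttg1, Cenpk, Cenpp and Cenpt, with adjusted p values of 0.091 to 1. Which libraries entered that comparison as replicates is not given in the sources used here.

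Genes of other cells and of progenitors were read beside these results. In this paragraph rose and fell mean a limma adjusted p under 0.05, reached by 2.01% and 0.54% of tested genes. All 14 HSC markers had both old replicates above both young ones (24.7% of tested genes did), and Slamf1 and Procr rose. Slamf1, which encodes the CD150 of the sort, had 23.7 and 23.0 FPKM in old HSCs, against 11.9 and 12.9 FPKM in young HSCs, and Kit had 224.1 and 247.9 FPKM in old HSCs, against 218.5 and 213.0 FPKM in young HSCs. Of 3 markers of multipotent progenitors Flt3 and Cd34 fell, and the 3 summed to 54.6 and 72.4 FPKM in old HSCs, against 117.8 and 136.6 FPKM in young HSCs. Flt3 had 3.60 and 4.42 FPKM in old HSCs, against 12.1 and 12.1 FPKM in young HSCs, while Cd48 overlapped between the ages, with 2.21 and 4.93 FPKM in old HSCs, against 3.43 and 13.7 FPKM in young HSCs. Of 12 erythroid markers 6 fell, among them Klf1, and the list summed to 582 and 685 FPKM in old HSCs, against 641 and 688 FPKM in young HSCs. Car2 made up most of these sums, with 474 and 572 FPKM in old HSCs, against 451 and 464 FPKM in young HSCs, and the other 11 summed to 108 and 113 FPKM in old HSCs, against 190 and 224 FPKM in young HSCs. Of 7 stroma markers 3 fell, among them Col1a1, which had 0.280 and 0.250 FPKM in old HSCs, against 3.90 and 7.72 FPKM in young HSCs, and the list summed to 11.1 and 10.6 FPKM in old HSCs, against 25.9 and 30.9 FPKM in young HSCs.

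Of 8 granulocyte progenitor markers 0 passed in limma, and the list summed to 267 and 411 FPKM in old HSCs, against 185 and 596 FPKM in young 13 and young 14. Mpo, the granule peroxidase, had 35.0 and 79.2 FPKM in old HSCs, against 28.4 and 219 FPKM in young HSCs. Of 11 neutrophil markers 0 passed in limma, with 5 lower at an unadjusted p under 0.05, against 5.08% of tested genes. All 11 had fitted changes below 0, against 43.5% of tested genes, with a median of -2.51 on the log2 scale. In 6 of the 11 the ages overlapped. The 11 summed to 157 and 414 FPKM in old HSCs, against 312 and 752 FPKM in young HSCs. B cell markers summed to 20.6 and 21.1 FPKM in old HSCs, against 19.3 and 20.3 FPKM in young HSCs. Cd79b made up most of these sums, at 17.9 and 20.1 FPKM in old HSCs, against 17.3 and 16.9 FPKM in young HSCs. Of the 7 B cell markers tested, 5 lay below 0 and 2 above it, and 0 passed in limma. The middle value of these 7 changes was -0.73 on the log2 scale. T cell markers summed to 0.386 and 0.399 FPKM in old HSCs, against 0.640 and 1.60 FPKM in young HSCs. Of these 6 markers only 1 passed the filter on low values, which the 2 young replicates alone can meet. Its log2 fold change was -1.47, and it did not pass (limma adjusted p = 0.0897). No marker was at 0 in all 4 replicates, and Cd8a was at 0 in old 14 and young 13. The part of the cells that these lists mark in the lower levels of the mitosis genes was not tested.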

How the data were processed

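Per the labels' protocols, polyadenylated RNA was sequenced in 8 libraries, which form 4 biological replicates with technical pairs. The submitters' processing notes name DESeq and the mm9 build; no source used here names the aligner or counter. The deposited count-like column is a score: in each library its values step as whole reads times 1 factor (estimated at 0.617 to 1.839, or reads of 22.3 M to 66.5 M per library), rounded by the authors. The deposited FPKM are these scores divided by the length of the gene model. The authors' deposited table also gives a log2 fold change and an adjusted p-value (FDR) per gene.

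Technical libraries were averaged, so n = 2 per age. Log2 values of score + 0.5 were tested with limma 3.58.1 (R 4.3.3) with a trend in the prior, two-sided, with Benjamini-Hochberg adjustment over the 18318 of 38172 models with at least 10 in at least 2 of 4 replicates. Fold changes are on this scale. Without counts, a count model was not the test. Alternatives were other pseudocounts, filters, scalings, libraries, priors and left-out replicates. The members and lists were chosen with earlier results of these data known. By rule, values per replicate were given for called members, the 4 of smallest p in each role group, the 2 of smallest p in other lists and set markers; others were added after their values were seen. Counting is not stated to use strand, so reads of overlapping models cannot be told apart (Ccna2 with Exosc9, Cdc20 with Elovl1, Birc5 with an unnamed model, Ncapg with Lcorl, Nusap1 with Oip5, Cenpp with Aspn, Ecm2, Ogn and Omd).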

Additional observations from a re-analysis of the deposited data

How the results depend on the processing

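The number of members called lower in limma, 1 (Ect2), was 0 with no filter on low values, with no trend in the prior and with the higher-numbered technical libraries (Ect2 limma adjusted p = 0.159, 0.119 and 0.0813), and 0 to 0 when each replicate was left out. Under the 15 alternatives the log2 fold change of Ect2 ranged from -0.91 to -0.73, its adjusted p from 0.000156 to 0.393, and it passed in 8. The median log2 fold change of members ranged from -0.59 to -0.40 when each replicate was left out. The count at an unadjusted p under 0.05 ranged from 2 to 42 when each replicate was left out and from 31 to 46 under the other alternatives. The fitted change of Bub3 was -0.016 with median-ratio factors, -0.0029 with limma-voom, and -0.020 with length-adjusted values. With 1 replicate left out it ranged from -0.14 (without old 14) to 0.20 (without old 13), and that of Cenpt from -0.30 (without young 14) to 0.10 (without young 13). The causes were not tested.

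With the replicate number as a block (replicate block), limma called 41 members lower, against 5.83% of tested genes. It also called lower 12 of 27 other kinetochore genes and 2 of 15 genes of the APC/C list. The same fit called lower 29 of 43 other mitosis genes and 22 of 55 DNA replication genes. Of the 22 E2F, DREAM and NF-Y genes it called 4 lower and 1 higher. The share of all tested genes that it called higher is not given here. Same-numbered samples deviated together with a correlation of 0.54 over tested genes, but there are 2 pairs and the labels do not say what a number shares. With 2 replicates per age, small changes are not resolved by the fits without this block. The block fit adds a term to the same samples, so each gene has less left to measure its spread. The calls of the block fit rest on a pairing that the labels do not establish.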

Other observations

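A few further genes beside the members were chosen after their values were seen. Of the subunits particular to condensin II, which works in the nucleus before the envelope breaks down, Ncapg2 had 11.5 and 10.7 FPKM in old HSCs, against 14.9 and 16.4 FPKM in young HSCs. Ncapd3 had 17.9 and 13.9 FPKM in old HSCs, against 21.7 and 21.1 FPKM in young HSCs, and Ncaph2 had 42.8 and 44.2 FPKM in old HSCs, against 53.2 and 47.4 FPKM in young HSCs. The ages did not overlap in these 3 genes, and none passed in limma with Benjamini-Hochberg adjustment (adjusted p = 0.155, 0.286 and 0.629 for Ncapg2, Ncapd3 and Ncaph2).

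Of the kinases that hold Cdk1 inactive, Pkmyt1 had 12.4 and 9.20 FPKM in old HSCs, against 18.6 and 15.5 FPKM in young HSCs. Wee1 had 24.4 and 28.7 FPKM in old HSCs, against 30.9 and 28.9 FPKM in young HSCs, with log2 fold changes of -0.67 for Pkmyt1 and -0.18 for Wee1. Cdc25a, a phosphatase that opposes them, had 10.7 and 10.9 FPKM in old HSCs, against 15.4 and 15.3 FPKM in young HSCs. Neither kinase nor the phosphatase passed the limma test (adjusted p = 0.163, 0.698 and 0.127 for Pkmyt1, Wee1 and Cdc25a).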
